A study of Rattus norvegicus with 8 samples.

Results

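The genes described here are 39 genes of the cell cycle and of DNA replication, chosen by name: helicase subunits and enzymes of replication, mitotic regulators, cyclins with their kinases, and inhibitors of those kinases. They were followed in spinal motoneurons of Wistar albino rats at postnatal day 1 (P1), while the axons are being myelinated, and at postnatal day 21 (P21), when myelination is complete. No allele, transgene or drug is named in the labels, and both ages were untreated animals of 1 strain. Each age had 4 arrays, and each array held RNA of 1500 to 2000 motoneurons cut by laser from cresyl violet-stained lumbar sections, from a pool of 4 rats. Of the 39 genes, 38 had a probe set (the group of probes that reads 1 transcript) with that gene as its single symbol, 53 probe sets in all among 31042 on the array. Rrm2 had none, since both probe sets that carry its name also carry another symbol.

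A cell that divides first commits in G1, where D-type cyclins with Cdk4 or Cdk6 release the E2F factors from the retinoblastoma protein, then copies its DNA with the Mcm2 to Mcm7 helicase and the Pcna clamp, and then enters mitosis under Cdk1 with the B-type cyclins. The inhibitors encoded by Cdkn1a (p21), Cdkn1b (p27), Cdkn1c (p57) and Cdkn2c (p18) hold these kinases back. Motoneurons leave the cell cycle in the embryo and stay postmitotic, while glial precursors, microglia and vascular cells of the cord still divide after birth. Some D cyclins and kinase inhibitors are also expressed in postmitotic neurons.

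Probe sets were tested where 4 or more of the 8 arrays read above a filter level, the 40th percentile of the array, and each gene was read from its kept probe set of highest mean. Of the 38 genes on the array, 31 were kept, 27 of them with all 8 arrays above it and 2 (Mcm6 and Tk1) through the P1 arrays alone. A change is P21 minus P1 in log2(intensity + 16), written ± its standard error, and adjusted p-values come from limma's test over all kept probe sets with Benjamini-Hochberg adjustment. An adjusted p under 0.05 is a call. Intensities are linear and n = 4 arrays per age, which sets the precision.

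Correlations between arrays ran from 0.958 to 0.986 for the same age and from 0.821 to 0.868 for different ages. Of 10 motoneuron markers, 9 were on the array and passed the filter, with 2 called higher at P21 (Chat and Isl2) and 1 lower. Isl1, the one called lower, was under the filter level on P21 replicates 1, 2 and 4. Sums of intensity below are over the markers that passed, and those of motoneurons were 46363 to 50094 at P1 and 47773 to 54346 at P21. Among markers of other cells, the calls were 8 higher and 0 lower of 9 for oligodendrocytes and myelin (summed 6482 to 8275 at P1, 34027 to 37029 at P21), 3 and 1 of 5 for oligodendrocyte precursors (7696 to 8835, then 10409 to 12448), and 6 and 2 of 9 for astrocytes. They were 4 and 0 of 6 for microglia and macrophages (1990 to 2921, then 4612 to 7730), 6 and 0 of 10 for endothelium and pericytes (7913 to 9883, then 11272 to 23136), and 3 and 0 of 4 for erythrocytes. They were 4 higher and 1 lower of 6 for Schwann cells, 1 and 5 of 8 for spinal interneurons, and 1 and 2 of 7 for neural progenitors (6638 to 7155, then 5550 to 6846). The microglial markers Itgam, Cx3cr1, Ptprc and Cd68 and the precursor markers Cspg4 and Olig2 did not pass the filter. These dim markers did not all rise. Itgam (mean 122 at P1, 27.3 at P21) and Ptprc (99.4, then 55.5) were lower at P21 with no overlap. Cspg4 (302, then 218) and Cd68 (85.6, then 77.9) were lower in the mean, and Cx3cr1 (124, then 194) and Olig2 (56.9, then 77.2) higher. The 5 precursor markers that passed it were divided. Bcas1 (mean 1323 at P1, 4356 at P21), Olig1 (1996, then 2994) and Sox10 (349, then 713) were called higher. Ptprz1 was called lower (2509, then 1361), and Pdgfra was not called (2109, then 2004). Since the pools can hold RNA of such cells, fewer cells of a type and less RNA per cell cannot be told apart in any value below, and the part of these cells in the results was not tested.

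P21 replicate 4 stood apart in these genes. Of the 31 kept members, 9 were more than 1.5 times higher on it than on the mean of the other P21 arrays (29.0%, against 3.29% of all 10961 genes). On P21 replicates 1, 2 and 3, compared in the same way, 0 of the 31 were. That array also had the highest summed markers of microglia (7730, the other P21 arrays reaching 5591), but not of oligodendrocyte precursors (11320, the others reaching 12448), and the lowest of neural progenitors (5550). Of the microglial markers that passed the filter, Lyz2 (3278), Csf1r (1620) and Cd74 (614) had their highest P21 value there. Aif1 (834), C1qa (556) and C1qb (827) did not. The precursor markers that passed were divided on that array. Olig1 (3122) had its highest P21 value there and Bcas1, the brightest of them at P21, its lowest (3832). Pdgfra (2123), Sox10 (770) and Ptprz1 (1473) lay between the other P21 arrays, so the precursor sum depends on Bcas1. The sum of P21 replicate 4 for endothelium and pericytes was the highest too (23136, the others reaching 18583), through the collagen genes Col1a1 (8626) and Col1a2 (8464) alone. The endothelial genes Cldn5 (1408), Pecam1 (344), Kdr (917), Tek (396), Flt1 (419) and Vwf (240) were at their lowest P21 value on it. Values without this array are given where leaving it out changes a member's call or direction, and for some genes that read high on it. Since the array was singled out by high values of these genes, leaving it out lowers their P21 means. Such values are therefore not separate support for a fall.

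Of the 31 kept members, 13 were called (41.9%), where 39.5% of all genes were. By direction, 9 were lower at P21 (29.0%, against 17.4% of all genes) and 4 higher (12.9%, against 22.1%). Since Mcm6 and Tk1 entered through their P1 values alone and had to be lower if called, the counts without them are 7 lower and 4 higher of 29 (24.1% and 13.8%). All genes with arrays of both ages above the filter level gave 16.6% lower and 21.2% higher. The P1 and P21 arrays did not overlap in 14 members, 10 lower and 4 higher at P21, and 40.2% of all genes were separated in that way. All 13 called members were among these 14, and the other was Ccnb1. The median change was -0.30 over the kept members and 0.05 over all genes, and -0.32 over all 38 members with no filter, where all genes gave 0.06. With each array centred on its median, which moved the median change of all kept probe sets from 0.07 to -0.07, 14 members were called lower and 3 higher, and the share of calls that were higher over all probe sets went from 54.4% to 38.6%. Without P21 replicate 4, 14 were called lower and 4 higher, while 52.3% of the calls over all probe sets were higher. A stricter filter, at the 60th percentile, left 6 called lower and 5 higher.

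**Figure D1:**
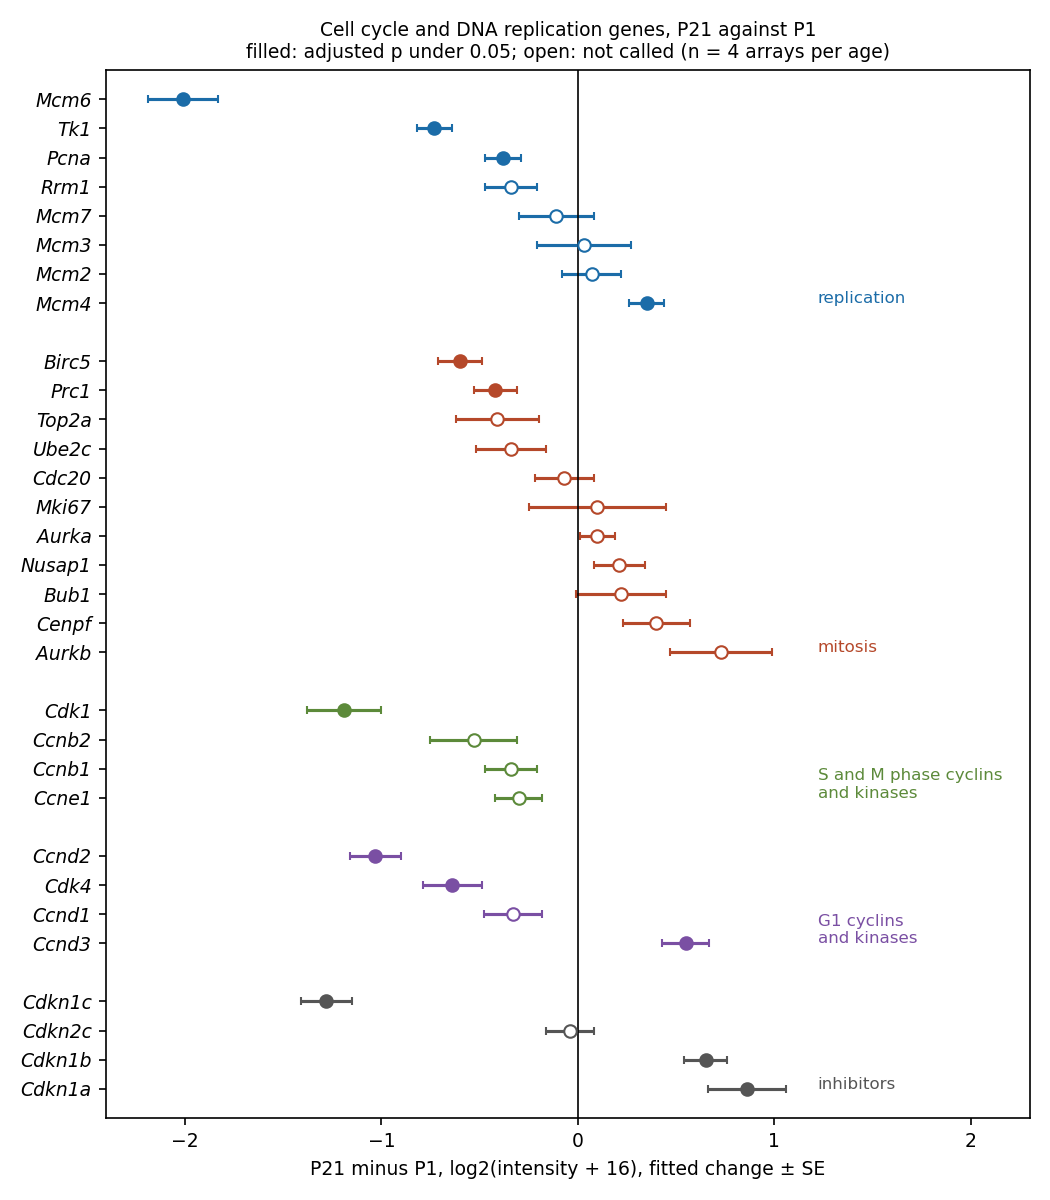
Fitted change of the 31 kept members, P21 minus P1 on the log2(intensity + 16) scale, with the standard error as a bar; genes are grouped by role and filled points are called. Calls lie on both sides of 0, from -2.01 for Mcm6 to 0.86 for Cdkn1a, and the kinase inhibitors are divided.

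The promoters of the called members differ in the elements known from cell cycle genes, and 4 are shown for that reason. The sequences are RefSeq's for build GRCr8, 250 bases before to 50 after the annotated start of the gene, which 30 of the 39 members had in that table. Capitals mark 3 motifs, searched on both strands: the CHR element bound by the DREAM and MuvB complexes (TTTGAA or TTCAAA), the CCAAT box bound by NF-Y (CCAAT or ATTGG), and an E2F site (TTTNNCGC or GCGNNAAA).
Cdk1, lower at P21, chr20:19265043-19265342, plus strand: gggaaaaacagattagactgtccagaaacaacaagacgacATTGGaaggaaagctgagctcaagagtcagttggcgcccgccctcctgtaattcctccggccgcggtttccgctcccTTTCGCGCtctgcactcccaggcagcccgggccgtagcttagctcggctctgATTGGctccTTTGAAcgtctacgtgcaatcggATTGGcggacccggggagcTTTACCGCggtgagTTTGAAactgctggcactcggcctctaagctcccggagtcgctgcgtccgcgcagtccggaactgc
Prc1, lower at P21, chr1:143659231-143659530, plus strand: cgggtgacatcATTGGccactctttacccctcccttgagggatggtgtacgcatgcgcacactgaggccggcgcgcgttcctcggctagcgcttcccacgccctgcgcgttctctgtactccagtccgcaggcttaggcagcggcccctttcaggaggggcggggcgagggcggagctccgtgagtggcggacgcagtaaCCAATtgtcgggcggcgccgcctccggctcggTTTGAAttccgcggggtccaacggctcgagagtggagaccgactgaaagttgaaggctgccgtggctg
Mcm6, lower at P21, chr13:42404303-42404602, minus strand: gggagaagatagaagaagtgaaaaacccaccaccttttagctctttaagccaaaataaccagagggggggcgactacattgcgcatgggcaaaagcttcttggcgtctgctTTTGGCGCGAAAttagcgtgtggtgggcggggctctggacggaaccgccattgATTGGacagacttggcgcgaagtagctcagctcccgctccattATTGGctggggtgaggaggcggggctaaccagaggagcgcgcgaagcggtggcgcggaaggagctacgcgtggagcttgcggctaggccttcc
Cdkn1b, higher at P21, chr4:169491254-169491553, plus strand: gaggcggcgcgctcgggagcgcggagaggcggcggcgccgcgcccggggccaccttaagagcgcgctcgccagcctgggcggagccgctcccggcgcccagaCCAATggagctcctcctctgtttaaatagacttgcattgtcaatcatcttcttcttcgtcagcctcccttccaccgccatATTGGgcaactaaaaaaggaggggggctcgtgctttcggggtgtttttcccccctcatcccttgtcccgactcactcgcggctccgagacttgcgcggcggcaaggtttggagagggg

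The Cdk1 window held all 3 motifs, with 2 CHR, 3 CCAAT and 2 E2F matches. The Prc1 window held 1 CHR and 2 CCAAT matches. Mcm6 had 2 CCAAT matches and 2 E2F matches, 1 on each strand and overlapping, and Cdkn1b had 2 CCAAT matches and neither of the others. Over the 30 members, E2F matches occurred in 9 windows (30%, against 4.92% of 33469 promoters and 5.83% of the 21851 of protein-coding genes). CHR matches occurred in 12 (40%, against 18.3% and 17.1%) and CCAAT matches in 20 (66.7%, against 37.5% and 38.0%). These shares describe the letters in the window and not the arrays. CHR matches occurred in 3 of the 7 called-lower members with a window and 0 of the 3 called-higher ones, E2F matches in 2 of 7 and 0 of 3, and CCAAT matches in 5 of 7 and 2 of 3. The called-lower shares of CHR (42.9%) and E2F (28.6%) were near those of all 30 members. Of the called-lower windows not shown, Cdk4 and Tk1 had no match, Pcna 1 CCAAT match, and Birc5 1 CHR and 1 CCAAT match. Of the called-higher ones, Ccnd3 had 1 CCAAT match and Cdkn1a none. The promoters of Ccnd1, Ccnd2, Cdkn1c, Mcm4, Cdk6, Ccna2, Aurkb, Ube2c and Rrm2 were not used here.

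Among the replication genes, 8 of 11 were kept, and 3 fell, 1 rose and 4 did not pass. Among the 6 kept through arrays of both ages, 1 fell (Pcna) and 1 rose, where 16.6% of all such genes fell and 21.2% rose. The members of the Mcm2 to Mcm7 helicase, which unwinds DNA at the fork, did not move together. Mcm6 read 279, 295, 371 and 351 on P1 replicates 1 to 4 and 73.5, 58.4, 48.2 and 100 on the P21 arrays. Every P21 value lay under the filter level, so the fall (-2.01 ± 0.18, adjusted p = 2.85e-05) is given as at least 1.16-fold. Mcm4, its partner in the same ring, went the other way, with 1609, 1614, 1808 and 1701 at P1 and 2155, 1993, 2079 and 2351 at P21 and no overlap. That rise (0.35 ± 0.09, adjusted p = 0.0139) was not called with arrays centred on their median (0.21, adjusted p = 0.256). Mcm2 (0.07 ± 0.15), Mcm3 (0.03 ± 0.24) and Mcm7 (-0.11 ± 0.19) did not pass and their ages overlapped, and without P21 replicate 4 the changes of Mcm2 and Mcm3 turned to -0.09 and -0.03. Mcm2 read 518 to 537 on the P1 arrays and 465 to 527 on P21 replicates 1 to 3, and 775 on P21 replicate 4. Mcm7 read 427 to 642 at P1 and 385 to 454 on those 3 P21 arrays, and 676 on P21 replicate 4. Mcm5 was not kept, with 2 of its 8 values above the filter level.

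Pcna, the sliding clamp of the polymerases, which also serves DNA repair, read 3269, 3334, 3482 and 3193 at P1. At P21 it read 2542, 2287, 2629 and 2719, below every P1 value (-0.38 ± 0.09, 1.30-fold, adjusted p = 0.00747). Tk1, thymidine kinase of the salvage pathway, had 301, 332, 296 and 325 at P1 and 167, 196, 179 and 191 at P21. All 4 P21 values lay under the filter level, and the fall (-0.73 ± 0.09, adjusted p = 2.02e-04) is at least 1.13-fold. Its 2 other probe sets were not kept. Rrm1, the large subunit of ribonucleotide reductase, read 442 to 590 at P1 and 325 to 457 at P21, an overlap, and did not pass (-0.34 ± 0.13, adjusted p = 0.0728). It passed in 3 of 16 alternatives: with arrays centred on their median, after quantile normalization and without P21 replicate 3. Tyms, thymidylate synthase, was not kept.

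Of the 13 mitosis genes, 11 were kept, and 2 fell, 0 rose and 9 did not pass, so that 18.2% were called, where 39.5% of all genes were. Birc5, the survivin subunit of the chromosomal passenger complex, read 541, 526, 560 and 512 at P1. At P21 it read 321, 333, 320 and 424, lower on every array (-0.60 ± 0.11, 1.52-fold, adjusted p = 0.00185). Prc1, which bundles the microtubules of the spindle midzone, fell from 810, 812, 616 and 709 to 555, 564, 508 and 549 (-0.42 ± 0.11, 1.34-fold, adjusted p = 0.0131). Mki67 and Top2a, widely used markers of proliferation, did not pass. Mki67, the Ki-67 antigen, read 447, 470, 345 and 317 at P1 and 530, 334, 209 and 818 at P21, an overlap in which P21 replicates 3 and 4 were the lowest and the highest of all 8 arrays (0.10 ± 0.35, adjusted p = 0.841). Its change was -0.04 with arrays centred, -0.03 after quantile normalization and -0.21 (adjusted p = 0.593) without P21 replicate 4.

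Top2a, topoisomerase II alpha, which untangles chromosomes before they part, read 1191, 1034, 954 and 961 at P1 and 777, 677, 553 and 1207 at P21. P21 replicate 4 was the highest of all 8 arrays and the other P21 arrays were below every P1 array. The change did not pass over all arrays (-0.41 ± 0.21, adjusted p = 0.151) and passed without P21 replicate 4 (-0.63, adjusted p = 0.00881). Ube2c, the ubiquitin-conjugating enzyme of the anaphase-promoting complex, had 1454, 1428, 1425 and 1441 at P1 and 1227, 858, 952 and 1643 at P21. It showed the same arrangement, with an adjusted p of 0.172 over all arrays (-0.34 ± 0.18) and of 0.0149 (-0.51) without that array.

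Aurkb, the kinase of the passenger complex that holds Birc5, was higher at P21 in the mean. It read 1341, 1575, 655 and 892 at P1 and 1927, 2170, 1433 and 1583 at P21, an overlap between P1 replicate 2 and P21 replicate 3. The change of 0.73 ± 0.26 did not pass (adjusted p = 0.0515). It passed in 7 of 17 alternatives, among them the replicate number as a block (adjusted p = 0.00476). Cenpf, a kinetochore protein of G2 and mitosis, read 237 to 412 at P1 and 341 to 509 at P21 (0.40 ± 0.17, adjusted p = 0.0954). It passed in 3 of 16 alternatives, among them that block (adjusted p = 0.00662). Aurka (0.10), Nusap1 (0.21), Bub1 (0.22) and Cdc20 (-0.07) overlapped between the ages and did not pass, with adjusted p-values of 0.248 to 0.744, and Bub1 changed by -0.01 without P21 replicate 4. Bub1b and Plk1 were not kept, with 0 of 8 values above the filter level.

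Of the 6 cyclins and kinases of S phase and mitosis, 4 were kept, and 1 fell, 0 rose and 3 did not pass. Over all genes, 17.4% fell and 22.1% rose. Cdk1, the kinase that drives entry into mitosis, read 679, 618, 677 and 616 at P1 and 263, 214, 230 and 436 at P21. All P21 values lay below all P1 values, and P21 replicate 4, the highest at P21, was the only P21 array above its filter level. The fall was -1.19 ± 0.19 (2.28-fold, adjusted p = 0.00102). Without that array all P21 values lay under the filter level, and the fall was at least 2.28-fold (adjusted p = 3.02e-05). Its partners Ccnb2 and Ccnb1, the B-type cyclins, were lower in the mean and did not pass. Ccnb2 read 817, 863, 615 and 754 at P1 and 537, 394, 417 and 820 at P21 (-0.53 ± 0.22, adjusted p = 0.0832), and passed without P21 replicate 4 (-0.74, adjusted p = 0.00590).

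Ccnb1 read 457, 551, 460 and 509 at P1 and 312, 372, 435 and 442 at P21, with no overlap (-0.34 ± 0.13, adjusted p = 0.0621, and 0.0440 with the replicate block). It passed without P21 replicate 4 (-0.40, adjusted p = 0.0475). Its other kept probe set changed by 0.14 ± 0.12, so the probe sets of this gene disagreed in sign, and their mean changed by -0.10 (adjusted p = 0.513). Ccne1, the cyclin of the G1 to S transition, read 2269 to 2769 at P1 and 1724 to 2458 at P21 (-0.30 ± 0.12, adjusted p = 0.0825, and 0.0367 with the replicate block). It too passed without P21 replicate 4 (-0.40, adjusted p = 0.0218). Cdk2, the partner of Ccne1, and Ccna2 were not kept, with 0 of 8 values of each above the filter level. Over these roles, the members gained without P21 replicate 4 were Top2a, Ube2c, Ccnb1, Ccnb2 and Ccne1, and 0 of the 9 called lower over all arrays were lost. Top2a, Ube2c and Ccnb2 are among the genes whose high values set that array apart, so their gain follows in part from that choice.

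**Figure D2:**
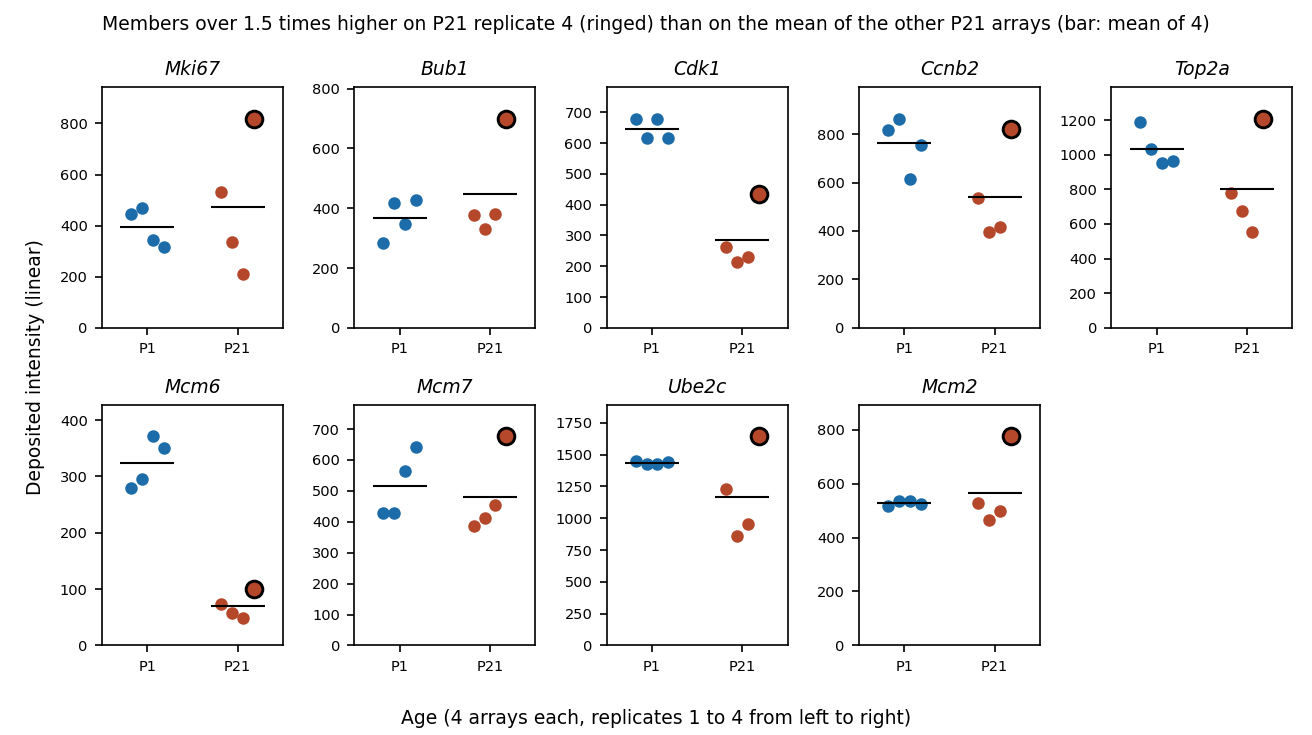
Linear intensity on each array of the 9 members more than 1.5 times higher on P21 replicate 4, which is ringed, than on the mean of the other P21 arrays; the bar is the mean of 4 arrays. The ringed value is above all P1 arrays for Mki67 (818), Bub1 (699), Top2a (1207), Mcm7 (676), Ube2c (1643) and Mcm2 (775), and below them for Cdk1 (436) and Mcm6 (100).

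The ratio of P21 replicate 4 to the mean of the other P21 arrays was 2.29 for Mki67, 1.93 for Bub1, 1.85 for Cdk1, 1.82 for Ccnb2, 1.80 for Top2a, 1.67 for Mcm6, 1.62 for Mcm7 and Ube2c and 1.56 for Mcm2. It was highest of the P21 arrays for 17 of the 31 members (54.8%) and for 33.9% of all genes. The rise on that array was not shared by every replication gene, since Pcna had a ratio of 1.09 and Tk1 of 1.06. It was also not seen in the D cyclins, whose ratios were 1.13 for Ccnd1, 1.03 for Ccnd2 and 1.02 for Ccnd3. The cutoff of 1.5 was chosen after the values were seen.

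The G1 regulators were divided. Of 5 genes, 4 were kept, and 2 fell, 1 rose and 1 did not pass, where 17.4% of all genes fell and 22.1% rose. The D-type cyclins, which activate Cdk4 and Cdk6, went different ways. Ccnd2 read 3503, 2936, 3088 and 2924 at P1 and 1578, 1778, 1207 and 1563 at P21, with no overlap (-1.03 ± 0.13, 2.04-fold, adjusted p = 2.21e-04). Ccnd3 read 1127, 1102, 1209 and 1542 at P1 and 1854, 1705, 1855 and 1838 at P21, again with no overlap (0.55 ± 0.12, 1.46-fold, adjusted p = 0.00499, and 0.0558 with arrays centred). Ccnd1 did not pass in any of its 3 kept probe sets. The brightest read 2206, 1535, 2172 and 2014 at P1 and 1836, 1343, 1385 and 1724 at P21, which overlap (-0.33 ± 0.15, adjusted p = 0.115, and 0.0386 with the replicate block), and the others changed by -0.29 ± 0.12 and 0.05 ± 0.24.

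Cdk4, the G1 kinase that these cyclins activate, read 2430, 2298, 2841 and 2976 at P1. It read 1316, 1636, 2062 and 1799 at P21, and the ages did not overlap (-0.64 ± 0.15, 1.55-fold, adjusted p = 0.00781). Cdk6, the other kinase of this step, was not kept, with 0 of 8 values above the filter level.

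**Figure D3:**
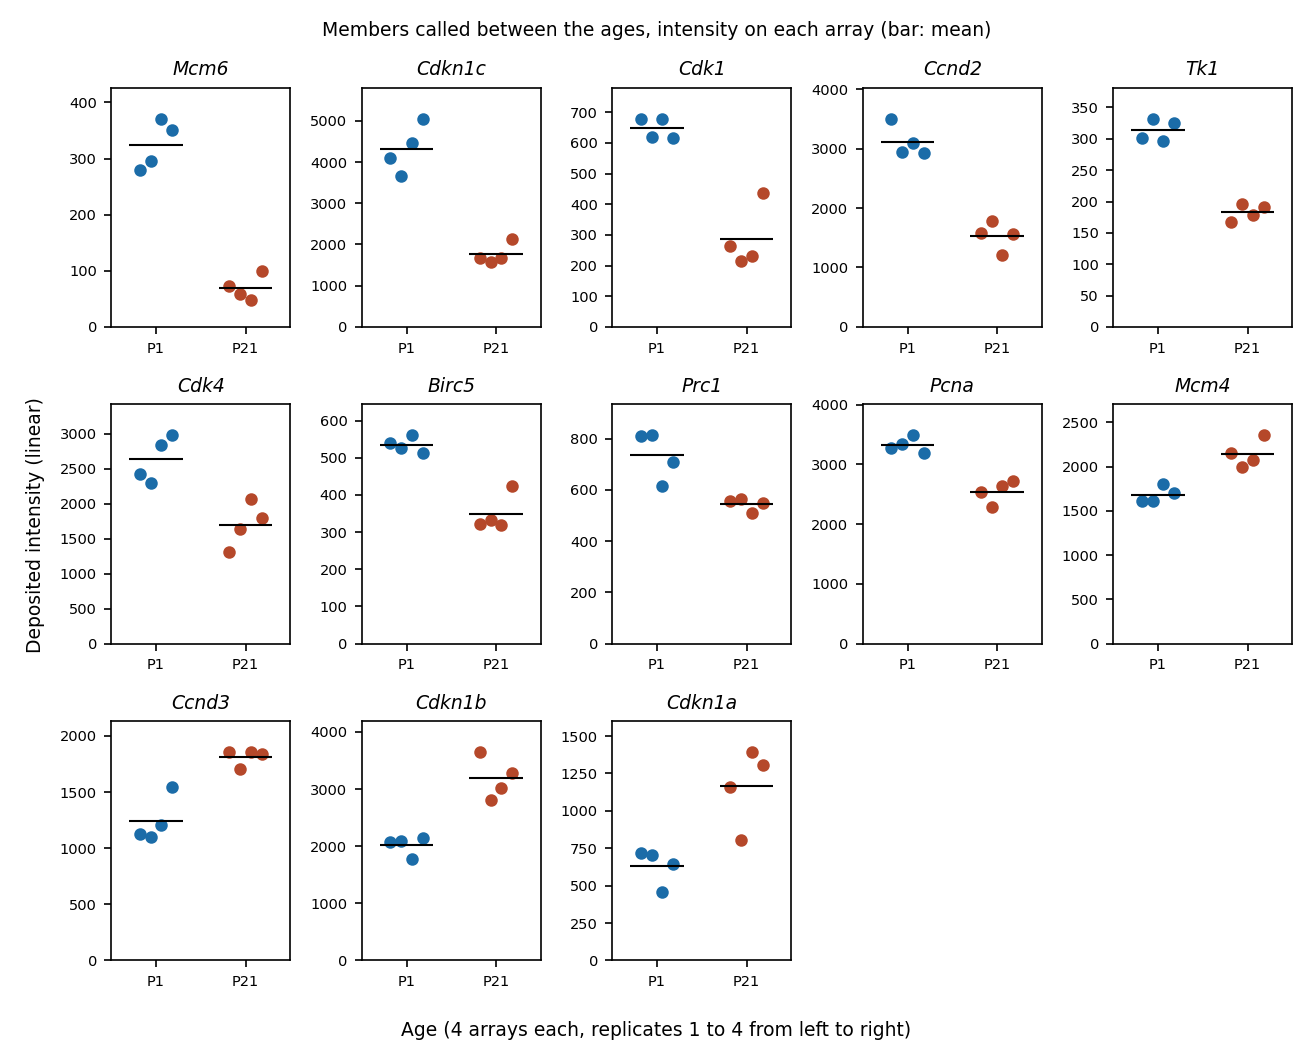
Linear intensity on each array of the 13 called members, ordered from the most negative to the most positive change; points are arrays, the bar is the mean of 4, and each panel starts at 0. In all 13 the P1 and P21 arrays do not overlap, and the ages come close for Prc1 (lowest P1 value 616, highest P21 value 564) and Cdkn1a (highest P1 value 719, lowest P21 value 804).

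The inhibitors of the cyclin-dependent kinases moved in both directions, with 2 of 4 higher (22.1% of all genes), 1 lower (17.4%) and 1 not passing. Cdkn1c, the gene of p57 and the member of this group called lower, had 4089, 3651, 4466 and 5051 at P1 and 1684, 1572, 1663 and 2139 at P21. The ages were well apart (-1.28 ± 0.13, 2.43-fold, adjusted p = 7.00e-05). The other genes of its family, the Cip and Kip inhibitors, rose. Cdkn1a, the gene of p21 and a target of p53, read 719, 703, 459 and 647 at P1 and 1159, 804, 1392 and 1309 at P21 (0.86 ± 0.20, 1.81-fold, adjusted p = 0.00691). Cdkn1b, the gene of p27, read 2072, 2090, 1771 and 2145 at P1 and 3645, 2814, 3012 and 3288 at P21 (0.65 ± 0.11, 1.57-fold, adjusted p = 0.00131). No P21 array overlapped a P1 array for either gene. Cdkn2c, the gene of p18 and the INK4 inhibitor in the list, read 668 to 864 at P1 and 641 to 802 at P21 and did not pass (-0.04 ± 0.12, adjusted p = 0.800).

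Genes outside the 39 were read from 3 further lists of the same processes. Over the lists, 105 of 153 genes were kept, 25 were lower at P21 (23.8%, against 17.4% of all genes) and 19 higher (18.1%, against 22.1%), with a median change of 0.00. Those counts include Mycn and Pbk, kept through the P1 arrays alone, and Spc24, kept through the P21 arrays alone. The direction of these genes was fixed if called. The counts were 32 lower and 13 higher with arrays centred, 31 and 16 after quantile normalization, and 30 and 17 without P21 replicate 4. Of 32 kept genes of the replication origin and fork, 6 fell (18.8%) and 5 rose (15.6%), with a median of -0.05. Fen1, the flap endonuclease that processes Okazaki fragments and also acts in base excision repair, rose from 694, 694, 696 and 659 to 1662, 1680, 1928 and 2208 (1.42 ± 0.11, adjusted p = 1.05e-05). Rfc1, the large subunit of the loader of the Pcna clamp, rose by 0.79 ± 0.11, and Rpa1, which coats single-stranded DNA, by 0.68 ± 0.08. Cdt1, which loads the Mcm helicase, fell by 0.88 ± 0.22 (adjusted p = 0.0109), reading 415 to 497 at P1 and 217, 185, 212 and 420 at P21, where P21 replicate 4 overlapped the P1 range. Without that array its fall was at least 1.65-fold (adjusted p = 1.12e-04). The polymerase delta subunits Pold3 and Pold2 fell by 0.66 ± 0.12 and 0.64 ± 0.16.

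Of 34 kept genes of mitosis and cytokinesis, 9 fell (26.5%, against 17.4% of all genes) and 6 rose (17.6%, against 22.1%). The median was -0.11, and 44.1% were called in either direction, where 39.5% of all genes were. Racgap1 of the central spindle fell by 1.01 ± 0.20, Zwilch of the kinetochore by 0.92 ± 0.11 and Spc25 of the kinetochore by 0.90 ± 0.17. The chromokinesin Kif22 rose by 1.20 ± 0.10, Cenpn of the centromere by 0.94 ± 0.13, and Incenp by 0.93 ± 0.15. Incenp is the scaffold of the passenger complex, and read 1014, 783, 642 and 618 at P1 and 1408, 1445, 1495 and 1412 at P21, while Birc5 of the same complex fell. In this list, 12 of the 34 were more than 1.5 times higher on P21 replicate 4 than on the mean of the other P21 arrays (35.3%), and 0, 0 and 1 were so on P21 replicates 1, 2 and 3. Spc25 read 449, 467, 595 and 812 on the P21 arrays and Racgap1 235, 201, 227 and 375, with the highest value on that array in both. Without it Spc25 fell by 1.07 (adjusted p = 2.38e-04) and Racgap1 at least 1.85-fold (adjusted p = 5.75e-04).

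Of 39 kept genes of G1 and checkpoint control, 10 fell (25.6%, against 17.4% of all genes) and 8 rose (20.5%, against 22.1%). The median was 0.11, and 46.2% were called in either direction, where 39.5% of all genes were. Atr, the kinase that answers stalled forks, rose from 258, 361, 274 and 314 to 2328, 2063, 2491 and 2454 (2.89 ± 0.12, adjusted p = 4.46e-07). Tfdp2, a partner of the E2F factors, rose by 1.70 ± 0.15, and Gadd45b, a stress-induced growth arrest gene, by 1.39 ± 0.15. Mycn, a driver of proliferation in neural precursors that is also made in young neurons, read 911, 950, 1354 and 1292 at P1. At P21 it read 196, 146, 231 and 156, all under the filter level, a fall of at least 3.87-fold (-2.52 ± 0.18, adjusted p = 6.30e-06). The antiproliferative gene Btg3 fell by 1.28 ± 0.17 and E2f5, a mostly repressive E2F factor, by 0.77 ± 0.15.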

How the data were processed

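The deposited values are linear intensities of 31042 probe sets on 8 arrays, per the labels from laser-captured motoneurons whose RNA (about 50 ng per pool) was amplified in 2 rounds from the poly(A) tail, which favours 3′ ends. The authors' summary, background and normalization steps are not given in the sources used here. Genes were named by the platform annotation (20826 probe sets with 1 symbol, 436 with several, 9780 with none), with 0 symbols changed on update. The limma package (3.58.1, in R 4.3.3) compared the ages by lmFit and eBayes on log2(intensity + 16), with negative values taken as 0, over the 19155 kept probe sets. The fit was tested on simulated arrays drawn independently, with few probe sets changed. That test does not cover deviations shared by same-numbered arrays, or changes in as many probe sets as here. Where all 4 arrays of an age lay under the 40th percentile, the change is at least the fold between the brighter age and that level.

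The members, lists, named genes (each member, and the 3 largest called changes each way per further list) and tests were chosen with earlier results of these data known. The main fit did not pair the arrays. Replicate numbers, shared by the ages, were taken to pair them in the replicate block, an alternative, alone. The labels do not tie a number to one of the 4 litters, but same-numbered arrays deviated together, at correlations of 0.514, 0.321, 0.558 and 0.15. The pairing is not clean, since P1 replicate 4 correlated with P21 replicate 3 at 0.366 and P1 replicate 1 with P21 replicate 2 at 0.262. Alternatives changed the pseudocount, the filter, the scaling, the replicate block, the probe set of a gene and each array. The p-values measure the spread between these pools of animals.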

Additional observations from a re-analysis of the deposited data

Results flagged for a closer look

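In 4 of the 62 groups of 4 arrays looked at (31 members at 2 ages), a single array lay far from the other 3, and chance gives about 1 in 20 such groups. Both high ones were P21 replicate 4, with Bub1 at 699 (the other P21 arrays 330 to 381) and Birc5 at 424 (320 to 333). Mcm3 read 279 on P21 replicate 3 (the others 467 to 486), and Ccnd3 read 1705 on P21 replicate 2 (the others 1838 to 1855).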

How the results depend on the processing

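Of the 13 called members, 11 stayed past the threshold in the same direction in every alternative that gave a value. Mcm4 and Ccnd3 lost their calls with arrays centred on their median, Mcm6 and Tk1 had no value under the filters on the 60th percentile and on the mean, and Birc5 had none under the first. Members called lower were 9, and 14 with arrays centred, 13 after quantile normalization, 6 with the filter at the 60th percentile, 7 with the filter on the mean and 9 to 14 with each array left out in turn, the highest without P21 replicate 4. Calls over all probe sets were 7329, and 5866 to 8805 over the alternatives. The replicate block gave 6 members higher and 12 lower, with 8805 calls over all probe sets, and changed no member's call other than the 5 given above. The change of Mki67 was -0.04 with arrays centred, -0.03 after quantile normalization and -0.21 to 0.42 with each array left out. That of Cdkn2c was -0.10 to 0.03 with each array left out. The causes were not tested. Genes near the filter level, such as Mcm6 and Tk1 at P21, have a bound only.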

Other observations

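In a Ccnd1 probe set and in Aurkb, the arrays numbered 1 and 2 read above those numbered 3 and 4 at both ages, a pattern picked out after the values were seen. The Ccnd1 probe set, which did not represent the gene, read 1237 and 1252 on P1 replicates 1 and 2 and 695 and 707 on replicates 3 and 4, and 1046, 1225, 731 and 940 on the P21 arrays in the same order. Aurkb read 1341 and 1575, then 655 and 892, at P1, and 1927 and 2170, then 1433 and 1583, at P21. The pattern was not particular to cell cycle genes, since the markers Aif1, C1qb and Ugt8 showed it too. Aif1 read 1043 and 1084, then 626 and 651, at P1, and 1041 and 925, then 676 and 834, at P21.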
